A study of Homo sapiens with 8 samples.

Results

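The genes described here are 10 long non-coding RNAs that carry small nucleolar RNAs (snoRNAs) in their introns: GAS5, SNHG1, SNHG5, SNHG6, SNHG8, SNHG12, SNHG15, SNHG16, SNHG29 and ZFAS1. They were taken by symbol, through the Ensembl gene identifier, from a table of 60651 genes, and all 10 had a row. The table holds ribosome profiling (Ribo-seq) values in TPM, a read level divided by transcript length and scaled to the same sum in every library. The cells were IMR32, an established human neuroblastoma line with amplified MYCN, labelled wild type in genotype and neuroblast in cell type. One group of 4 libraries came from cells treated with CR31B, a silvestrol analogue that targets the RNA helicase eIF4A, and the other 4 came from cells given the solvent DMSO (0.1%). Treatment lasted 6 h, and both groups then received CHX (cycloheximide, which stops elongating ribosomes) before harvest. The dose of CR31B is not in the labels, and 1 cell line was studied. Replicates are called biological in the series design, and no label says more about what separates them.

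A snoRNA host gene is transcribed and spliced, and the excised introns are trimmed to the snoRNAs that guide chemical modification of ribosomal RNA. The exons left over form a spliced RNA that in many hosts reaches the cytoplasm, is bound by ribosomes over short reading frames and is broken down by nonsense-mediated decay. Several hosts start with a 5′ terminal oligopyrimidine (TOP) motif, a C at the cap followed by a run of pyrimidines, which they share with the mRNAs of ribosomal proteins and through which LARP1 and mTOR signalling control translation. GAS5 is known for accumulating in growth-arrested cells, SNHG1 was first described as the host of the U22 snoRNA, and ZFAS1 lies antisense to the 5′ end of ZNFX1.

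Because the motif is the reason to look at these RNAs together, their transcript starts are shown first. The lines give the first 30 bases of 1 transcript per gene from GENCODE release 29 (GRCh38), 5′ to 3′. Each transcript was picked because it starts with the motif, so the lines are examples and do not show how common it is. The opening C and its pyrimidine run are in capitals.
GAS5: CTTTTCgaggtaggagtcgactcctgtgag
SNHG16: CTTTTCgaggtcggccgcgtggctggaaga
SNHG5: CTTTTacgtcggccttcgcgagcgtctggg
SNHG8: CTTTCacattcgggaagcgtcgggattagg
ZFAS1: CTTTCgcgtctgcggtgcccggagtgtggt
SNHG12: CCTTCCTgcgcgccgttccccgctagtcgc
SNHG29: CTCCTTTTgtgaggattgggatattccgac
SNHG1: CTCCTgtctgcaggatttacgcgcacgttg
GAS5 and SNHG16 share their first 11 bases, and no other GENCODE gene has a transcript that starts with them: the count of such genes was 2. The SNHG1 line comes from a transcript of retained-intron type, since no SNHG1 transcript of another type in the annotation starts this way. The printed starts lie at chr1:173867989 (GAS5, minus strand), chr17:76557769 (SNHG16, plus), chr6:85678733 (SNHG5, minus), chr4:118278758 (SNHG8, plus), chr20:49278642 (ZFAS1, plus), chr1:28581818 (SNHG12, minus), chr17:16438975 (SNHG29, plus) and chr11:62855479 (SNHG1, minus).

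The motif was searched as a C followed by at least 4 bases that are each C or T, on the transcribed strand. At the RefSeq start (GRCh38.p14) it was present in 3 of the 8 members that the promoter table holds, namely SNHG5, SNHG12 and ZFAS1, against 4.07% of all 35116 promoters and 56.6% of 83 ribosomal protein promoters. Starting anywhere from 10 bases before to 10 bases after that position, it was found in 6 of the 8, against 33.5% of all promoters, with GAS5 and SNHG1 lacking it. Each of the 8 had at least 1 GENCODE transcript that starts with the run, against 20.8% of the 12900 genes with 5 or more transcripts. That comparison was not matched on transcript number. More transcripts make at least 1 such start easier to find, and SNHG29 alone has 30. Counted over transcripts, 26 of 147 (17.7%) started with it, against 2.41% of all 206694. Transcripts of 1 gene can share a start and are not independent, and the genes were grouped for this motif. These shares are therefore a description, with no test. By this search all 8 carry the motif on some annotated transcript, and 3 of them at the RefSeq start. GAS5 shows the difference: RefSeq places its start at chr1:173869045, and the transcript printed above starts inside the gene at chr1:173867989. For SNHG1 the RefSeq start is chr11:62855885, and the printed retained-intron transcript also starts inside the gene. SNHG6 and SNHG15 were not in the promoter table.

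Only the reading frame opened by the first ATG was measured on such transcripts, and later frames were not searched. Over 16 transcripts of 7 members that start with the run and are not of retained-intron type, the frame opened by the first ATG held from 4 to 53 codons. The gene-level table does not show where on a transcript the reads fell.

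The snoRNAs themselves gave no values above 0 TPM. Of 36 snoRNA names listed for the members, 26 had a row, and the 32 rows they matched were listed at 0 TPM in all 8 libraries. The same held for most snoRNA genes: of 942 snoRNA genes in the table, 13 were above 0 in any library, and the highest value was 0.43 TPM. Host values can still hold snoRNA reads, since 20 of the 25 snoRNA genes that GENCODE places inside the members lie whole within an annotated transcript of the host, and 8 of these within a transcript that is not of retained-intron type. GENCODE 29 places none inside GAS5, where RefSeq has 11 of the 38 it places in the 10 hosts, so these counts do not cover GAS5. Of the 7 inside SNHG1, 6 lie whole in at least 1 of its transcripts. SNORD25 and SNORD27 are shown as examples, with the box C (TGATGA) and box D (CTGA) of this snoRNA class in capitals; SNORD25 (chr11:62855564-62855632, minus strand) lies whole in 5 and SNORD27 (chr11:62855012-62855083, minus strand) in 4 of the 25 SNHG1 transcripts.
SNORD25: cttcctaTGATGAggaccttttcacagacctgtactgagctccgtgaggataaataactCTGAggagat
SNORD27: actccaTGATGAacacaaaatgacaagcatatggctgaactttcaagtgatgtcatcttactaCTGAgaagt
How much of any host value came from snoRNA sequence was not tested, because the table has 1 value per gene.

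The 8 libraries listed from 17857 to 22270 genes above 0. TPM keeps no read totals, so the number of reads behind a value is not known. Protein-coding genes took 51.8% to 61.3% of TPM, and the highest share was in CR31B replicate 1, where the other 3 CR31B libraries reached at most 52.3%. Neuroblastoma markers were present, with HAND2 at 160 to 195 TPM in DMSO and 250 to 319 TPM in CR31B and GATA3 at 34.04 to 52.3 TPM (lowest and highest library of all 8), while PRRX1 was listed at 0 in every library and PTPRC and EPCAM did not exceed 0.06 TPM. HAND2 rose (log2 change 0.58, limma adjusted p = 0.0188; 0.0577 without DMSO replicate 2), and its part in the results on the hosts was not tested. TH, also on the neuroblastoma list, was low at 0.35 to 1.19 TPM. PRRX1 is a mesenchymal marker, and the others on its list were above 0. FN1 ranged from 3.2 to 5.89 TPM, CD44 from 0.52 to 2.11 TPM and YAP1 from 0.4 to 1.15 TPM. A footprint level is the product of how much RNA there is and how many ribosomes it carries, and these values cannot tell one from the other, nor fewer cells with the RNA from less RNA per cell.

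In DMSO-treated cells the hosts spanned more than 2 orders of magnitude per unit length. SNHG1 was the highest, with a DMSO mean of 770.0 ± 56.8 TPM (SD, n = 4), and ranked 186 among the 11778 genes tested. It ranked 4 among the 475 tested genes of long non-coding type (GENCODE lincRNA, antisense, processed transcript and related types), which leave out small RNA genes. SNHG5 and GAS5 followed at 292 ± 142 and 247 ± 47.6 TPM, and their DMSO ranges overlapped. The next step held SNHG8, SNHG29 and SNHG16 at 84.9 ± 21.6, 79.4 ± 11.6 and 77.3 ± 7.53 TPM, overlapping from neighbour to neighbour. ZFAS1 and SNHG15 stood at 24.0 ± 5.20 and 19.3 ± 0.905 TPM, and SNHG6 and SNHG12 at 7.55 ± 1.13 and 6.41 ± 0.899 TPM. The gaps between these 5 steps were 2.56- to 3.22-fold, and no DMSO library of a lower step reached one of the step above. The same 5 steps stood apart in CR31B, so the order of the steps was kept under treatment.

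**Figure D1:**
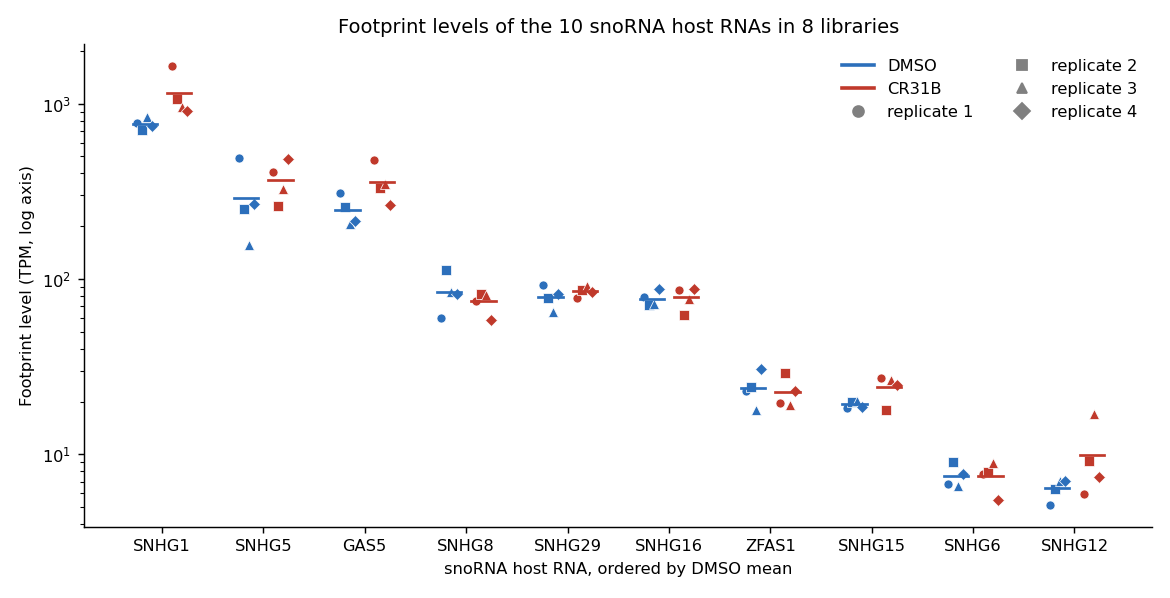
Footprint level of each host RNA in TPM on a log axis, with 1 point per library (marker shape gives the replicate number), bars for the group mean of 4 libraries, DMSO in blue and CR31B in red. SNHG1 is the only host whose CR31B libraries (912 to 1642 TPM) all lie above its DMSO libraries (710.3 to 844 TPM).

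The comparison asked whether ribosome footprints on these RNAs differed after 6 h of eIF4A inhibition. No member passed limma's test at a Benjamini-Hochberg adjusted p under 0.05 over all genes tested (0 of 10), where 7.46% of all 11778 genes did, 3.45% higher and 4.02% lower. At an unadjusted p under 0.05 there were 2, SNHG1 and GAS5, against 23.4% of all genes. Of the members, 7 had a log2 change above 0 and 3 below, with a median of 0.20 (0.089 without DMSO replicate 3). Over all genes tested 54.1% were above 0 and the median was 0.029, and over the 475 genes of long non-coding type the median was 0.12. In pairs of the same replicate number, 3 members were higher in CR31B in 4 of 4 pairs (SNHG1, GAS5 and SNHG12), as were 20.1% of all genes tested. The counts of 0, 2 and 3 members lie near what these background shares give for 10 genes.

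SNHG1 (ENSG00000255717.7, chr11:62851988-62855914, minus strand) read 779, 710.3, 844 and 747 TPM in the DMSO libraries, replicates 1 to 4, and 1642, 1062, 961 and 912 TPM in the CR31B libraries, replicates 1 to 4. Every CR31B library lay above every DMSO library, which held for 1 of the 10 members and 8.07% of all genes tested (the reverse order held for no member and 8.14%), and CR31B replicate 1 lay far above the rest. The means were 1144 ± 338 and 770.0 ± 56.8 TPM (SD, n = 4 each), and the log2 change was 0.53 (SE 0.18, 95% interval 0.13 to 0.94). The limma adjusted p was 0.110, and the two-sided exact permutation p was 0.0286, the smallest that 4 against 4 libraries allow. With Benjamini-Hochberg adjustment over the 10 members the exact permutation p was 0.286. After rescaling TPM over protein-coding genes the log2 change was 0.57 and the limma adjusted p was 0.0423, where 1 member and 9.02% of all genes passed (4.62% higher and 4.4% lower); over all alternatives that p ran from 0.0423 to 0.286. Without CR31B replicate 1, the library with the largest protein-coding share, the log2 change was 0.34.

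GAS5 (ENSG00000234741.8, chr1:173863900-173868882, minus strand) read 475, 333, 349 and 265 TPM in CR31B replicates 1 to 4, and 310.1, 257, 207 and 214 TPM in DMSO replicates 1 to 4. The groups overlapped, since the lowest CR31B library lay below the highest DMSO library, yet each CR31B library exceeded the DMSO library of its number. Its log2 change was 0.51 (SE 0.19, 95% interval 0.089 to 0.93), with a limma adjusted p = 0.137. The exact permutation p was 0.0571, and 0.286 after adjustment over the 10 members. The differences within pairs were 0.61, 0.37, 0.75 and 0.31 on the log2 scale. No label says that the replicate numbers mark pairs, which were taken from the libraries' shared deviations. With the replicate number as a block, GAS5 passed with a limma adjusted p = 0.0223 (95% interval 0.27 to 0.75). Under that fit 1 of the 10 members passed, and 12.3% of all genes did (5.77% higher and 6.56% lower). After quantile normalization GAS5 and SNHG1 both passed, so 2 of 10 members did, with 9.97% of all genes (4.13% higher and 5.83% lower). Without CR31B replicate 1 the GAS5 log2 change was 0.36 (limma adjusted p = 0.244). Over all alternatives the GAS5 adjusted p ran from 0.0223 to 0.331.

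SNHG12 (ENSG00000197989.14, chr1:28578538-28583132, minus strand), host of SNORD99 and several SNORA genes, had the lowest DMSO mean, at 5.94, 9.17, 17.04 and 7.42 TPM in CR31B replicates 1 to 4 against 5.16, 6.35, 7.04 and 7.09 TPM in DMSO replicates 1 to 4. The groups overlapped and CR31B replicate 3 stood well above the others. Its log2 change of 0.47 (SE 0.26, 95% interval -0.10 to 1.04, limma adjusted p = 0.309) was 0.19 without that library. SNHG12 exons share bases with TRNAU1AP on the opposite strand, whose means were 20.5 TPM with CR31B and 20.01 TPM with DMSO; whether the counting used strand is not given in the sources used here.

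SNHG5 (ENSG00000203875.13, chr6:85660950-85678748, minus strand), host of the U50 snoRNAs, varied most between control libraries. Its DMSO values were 491, 253, 156 and 267 TPM in replicates 1 to 4, and its CR31B values 409, 259.8, 324 and 483 TPM. The coefficient of variation was 48.7% in DMSO, against 4.69% to 25.5% for the other members. The log2 change of 0.42 (SE 0.31, 95% interval -0.27 to 1.11, limma adjusted p = 0.458) was 0.71 without DMSO replicate 1 and 0.16 without DMSO replicate 3. Within pairs it ran from -0.27 to 1.05, so neither direction was shared by all pairs.

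SNHG15 (ENSG00000232956.9, chr7:44983023-44986961, minus strand), host of SNORA9, had the tightest control values, 18.4, 19.8, 20.3 and 18.6 TPM in DMSO replicates 1 to 4. In CR31B it stood at 27.2, 17.9, 26.4 and 24.9 TPM, with replicate 2 below all DMSO libraries and the other 3 above them. Its log2 change was 0.29 (SE 0.14, 95% interval -0.018 to 0.60), with a limma adjusted p = 0.242; without CR31B replicate 2 they were 0.42 and 0.0536.

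For the other 5 hosts the estimates lay between -0.16 and 0.11 on the log2 scale. SNHG29 (ENSG00000175061.18, chr17:16438822-16478678, plus strand; LRRC75A-AS1 in GENCODE 29), host of the SNORD49 pair and SNORD65, ranged from 78.0 to 91.0 TPM in CR31B and from 64.7 to 92.6 TPM in DMSO, with a log2 change of 0.11 (95% interval -0.17 to 0.39) that was 0.017 without DMSO replicate 3 and 0.19 without DMSO replicate 1. SNHG16 (ENSG00000163597.15, chr17:76557766-76565348, plus strand), host of the SNORD1 genes with a start sequence like that of GAS5, ranged from 62.5 to 87.7 TPM and from 71.0 to 87.4 TPM, with a log2 change of 0.014 (95% interval -0.28 to 0.31) that was below 0 with median-ratio scaling and without CR31B replicate 1 or 4 or DMSO replicate 2 or 3. SNHG6 (ENSG00000245910.8, on chromosome 8), host of SNORD87, ranged from 5.53 to 8.98 TPM and from 6.64 to 9.08 TPM, and its log2 change of -0.010 (95% interval -0.36 to 0.34) was above 0 when rescaled over protein-coding genes or without small RNA genes, and without CR31B replicate 4 or DMSO replicate 2 or 4. In each of these 3 the CR31B and DMSO ranges overlapped.

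ZFAS1 (ENSG00000177410.13, chr20:49278178-49295738, plus strand), host of the SNORD12 genes, stood at 19.7, 29.1, 19.1 and 23.2 TPM with CR31B, and at 23.0, 24.3, 17.98 and 30.6 TPM with DMSO, replicates 1 to 4 each. Its log2 change was -0.067 (95% interval -0.46 to 0.33) and turned positive without CR31B replicate 3 or without DMSO replicate 4. ZNFX1, the gene it runs antisense to, had means of 1.22 TPM with CR31B and 0.878 TPM with DMSO. SNHG8 (ENSG00000269893.8, chr4:118278709-118279823, plus strand), host of SNORA24, had the lowest estimate, with 75.4, 82.5, 81.7 and 58.5 TPM in CR31B replicates 1 to 4 and 60.3, 112.9, 83.9 and 82.5 TPM in DMSO replicates 1 to 4. Its log2 change was -0.16 (SE 0.19, 95% interval -0.58 to 0.25, limma adjusted p = 0.650), with -0.32 without DMSO replicate 1, -0.054 without CR31B replicate 4 and -0.017 without DMSO replicate 2. The interval of each of these 5 hosts holds 0 and bounds the difference for that host alone.

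**Figure D2:**
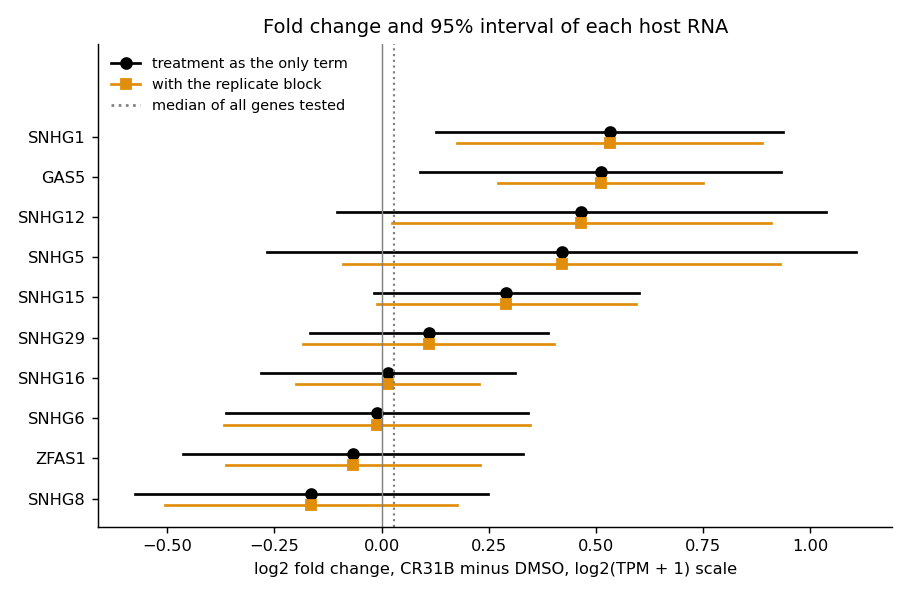
Log2 change (CR31B minus DMSO, log2(TPM + 1) scale) of each host RNA with its 95% interval, from limma with treatment as the only term (black) and with the replicate block (orange), n = 4 libraries a group. The intervals of SNHG1 and GAS5 lie above 0 in both fits, and the dotted line marks the median of all genes tested, 0.029.

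Added up, the 10 hosts took 0.283%, 0.195%, 0.196% and 0.195% of all TPM in CR31B replicates 1 to 4, and 0.187%, 0.154%, 0.148% and 0.154% in DMSO replicates 1 to 4. The groups did not overlap, and the means were 0.217% ± 0.0437 and 0.161% ± 0.0174 (SD, n = 4 each). Their difference was 0.0563 percentage points, and 0.0345 without CR31B replicate 1. No test was run on this sum, because the members were chosen with earlier results known. SNHG1 alone made up 46.7% to 58.1% of the sum in CR31B and 41.7% to 57.1% in DMSO. Without SNHG1 the other 9 took 0.0888% to 0.118% in CR31B and 0.0635% to 0.109% in DMSO, and these ranges overlapped. Replicate 1 held the highest sum within each group, and CR31B replicate 1 and DMSO replicate 1 were also the libraries with the highest protein-coding share of their groups, at 61.3% and 58.4%; the part of that share in the sums was not tested.

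**Figure D3:**
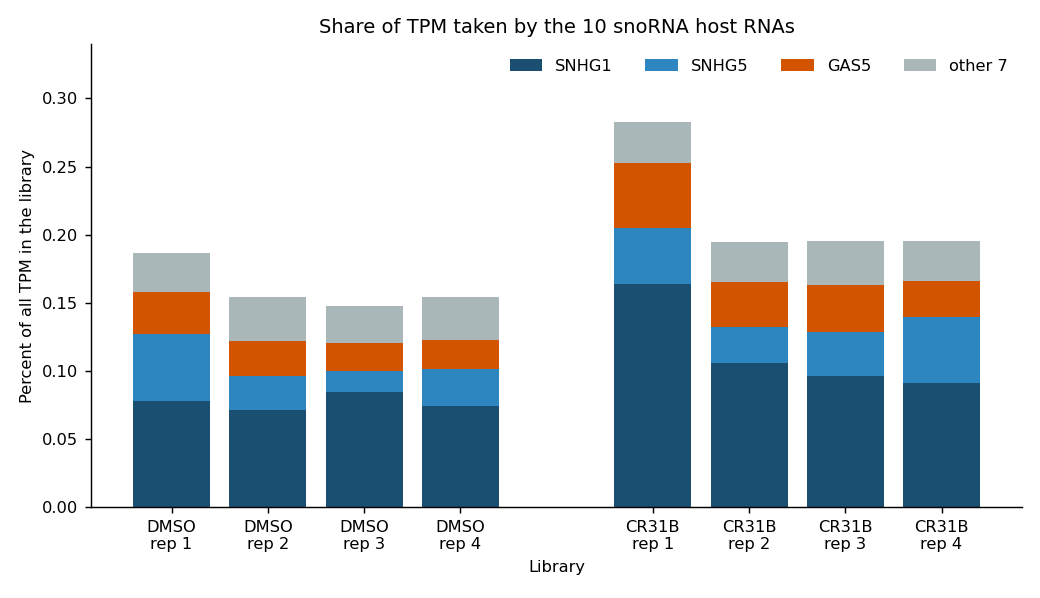
Percent of all TPM in a library taken by the 10 host RNAs, as stacked bars for SNHG1, SNHG5, GAS5 and the other 7 hosts together, 1 bar per library. The bars reach 0.148% to 0.187% in DMSO and 0.195% to 0.283% in CR31B, and SNHG1 is the largest segment in each bar.

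Related genes were read from the same fit, in lists chosen with earlier results of these data known. The list counts below stand beside the shares over all genes tested. Of those, 54.1% had a log2 change above 0, 3.45% rose and 4.02% fell at a limma adjusted p under 0.05. Among 13 tested of 16 other non-coding snoRNA hosts, 1 rose, none fell and 12 had a log2 change above 0, with a median of 0.29. SNHG17 was the one that rose, from 31.2, 32.7, 30.5 and 29.6 TPM in DMSO replicates 1 to 4 to 45.8, 46.5, 40.4 and 43.9 TPM in CR31B replicates 1 to 4. Its libraries were tight and did not overlap, with a log2 change of 0.50 (SE 0.099, limma adjusted p = 0.0156), and without DMSO replicate 4 the adjusted p was 0.0586. That estimate is close to those of SNHG1 and GAS5, and its SE lies below those of the 10 members, which ran from 0.13 to 0.31. SNHG3, singled out after its values were seen, had the highest estimate, 0.80 (SE 0.40, limma adjusted p = 0.256), and passed only with the replicate block (limma adjusted p = 0.0208).

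Protein-coding hosts formed another pair of lists. A list of 27 protein-coding hosts, mostly ribosomal protein genes, was taken as carrying a TOP motif, which was not searched gene by gene. Of these, 1 fell, none rose and 9 had a log2 change above 0, with a median of -0.082. The one that fell was TPT1, a growth-related calcium-binding protein, with a log2 change of -0.50 (limma adjusted p = 0.0371), with means of 439 ± 56.6 TPM (DMSO) and 309 ± 26.5 TPM (CR31B; SD, n = 4 each). That call was lost without a filter on low values and when any 1 library was left out, except CR31B replicate 1 or DMSO replicate 3. Of 15 other protein-coding hosts, 1 rose and 3 fell, with 12 above 0 and a median of 0.24. EIF4A2, an eIF4A paralogue, rose by 0.78 on the log2 scale (limma adjusted p = 0.00974), from 131 ± 14.2 to 226 ± 39.4 TPM. HSPA8, a constitutive heat-shock chaperone, fell by 1.03 on the log2 scale (limma adjusted p = 0.0147), from 1233 ± 121 to 624 ± 193 TPM; with no filter on low values its adjusted p was 0.0717. The other 2 that fell, named after their values were seen, were EIF4G2 (-0.75 on the log2 scale) and SNRPB (-0.63). The SNRPB call was lost without a filter on low values and when CR31B replicate 3 or 4 or DMSO replicate 1, 2 or 4 was left out. Whether the medians of these lists differ from that of the 10 members was not tested.

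The proteins that work on these RNAs were read last. None of 16 core and assembly proteins of snoRNA particles passed limma's test (0 called, 1 at an unadjusted p under 0.05), and their median log2 change was 0.17. With the replicate block 1 of them, the assembly factor ZNHIT3, passed (log2 change 0.32, limma adjusted p = 0.0475). Of 17 nonsense-mediated decay factors 2 rose, none fell and 15 were above 0, with a median of 0.17. SMG9, a regulator of the SMG1 kinase, had the largest rise, from 8.64 ± 1.22 to 15.9 ± 2.23 TPM (SD, n = 4 each; log2 change 0.81, SE 0.14, limma adjusted p = 0.00900). The other was the endonuclease SMG6, at 0.67 (limma adjusted p = 0.0371), whose call was lost without a filter on low values and when any 1 library was left out, except CR31B replicate 2 or DMSO replicate 1. With the replicate block RBM8A, a subunit of the exon junction complex, passed as well (log2 change 0.54, limma adjusted p = 0.0170). UPF1, named as the central helicase of the pathway, had a log2 change of 0.17 (limma adjusted p = 0.655). Of 9 regulators of TOP RNAs none passed (0 called, 3 at an unadjusted p under 0.05), and LARP1, named because it binds the motif, had a log2 change of -0.045 (limma adjusted p = 0.896). With the replicate block 1 of these, the RNA-binding protein TIAL1, passed on the lower side (log2 change -0.46, limma adjusted p = 0.0386).

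**Figure D4:**
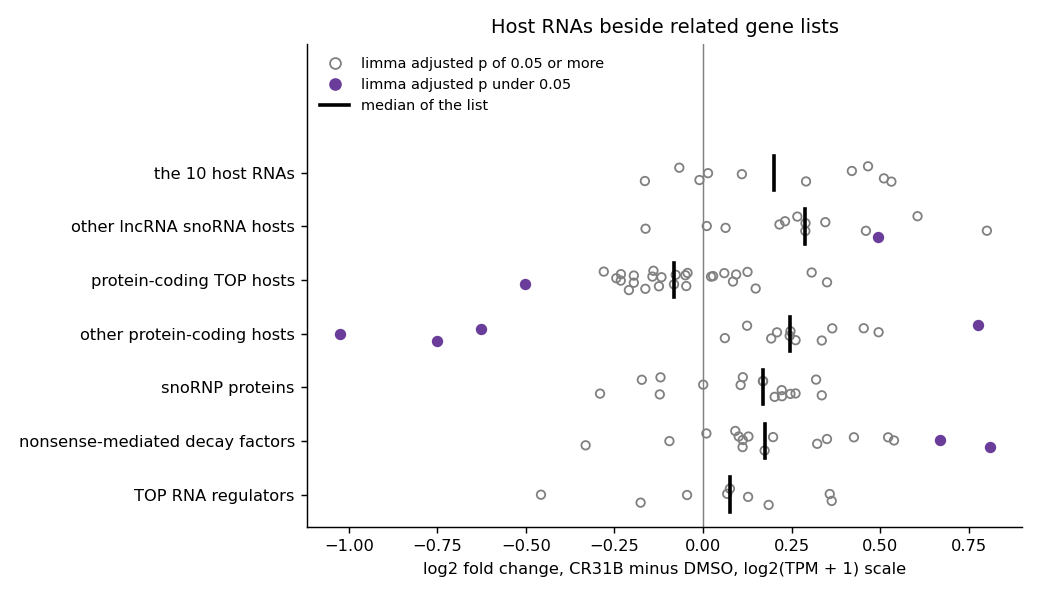
Log2 change (CR31B minus DMSO, log2(TPM + 1) scale) of every tested gene of the 10 host RNAs and 6 related lists, with filled points for a limma adjusted p under 0.05 and a bar for each list's median. The members' median is 0.20, that of the other non-coding hosts 0.29 and that of protein-coding TOP hosts -0.082.

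Over the 8 libraries, the genes whose log2(TPM + 1) followed the mean standardized level of the 10 hosts most closely were ENSG00000258677.2 (Pearson r 0.983, Spearman rho 0.810), SCAF11 (0.979 and 0.929) and FUNDC1 (0.978 and 0.738). They lead 5605 genes whose mean reached 10 TPM, and the libraries share their treatment and their replicate numbers, so these values are a description with no test. None of the 3 passed limma's test of treatment (adjusted p of 0.224, 0.334 and 0.410).

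**Figure D5:**
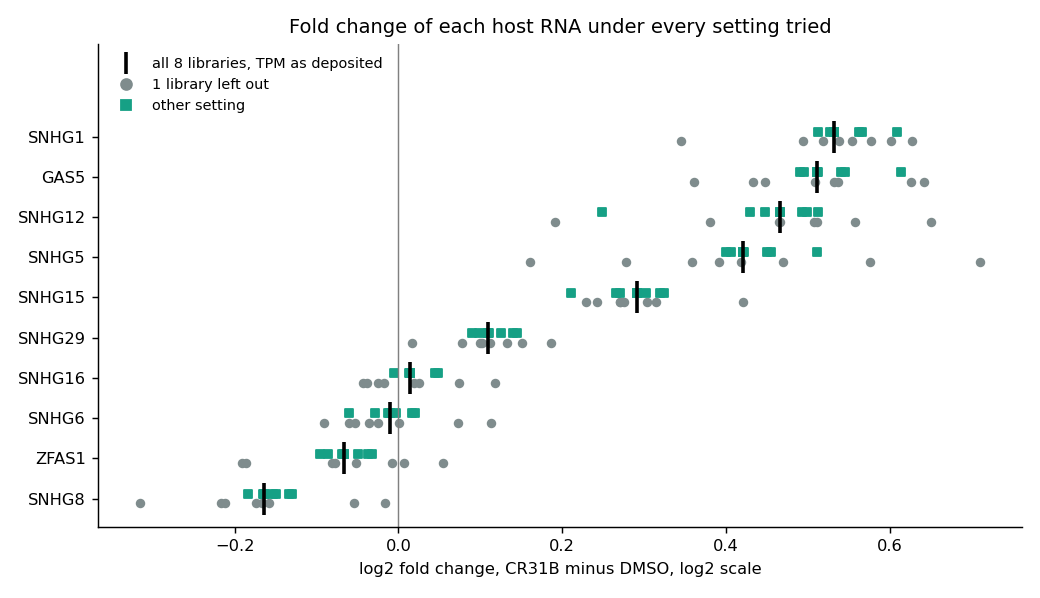
Log2 change of each host RNA with all 8 libraries and TPM as deposited (black bar), with 1 library left out (grey circles) and under the other settings tried (green squares). SNHG1, GAS5, SNHG12, SNHG5, SNHG15 and SNHG29 stay above 0 throughout, SNHG8 stays below 0, and SNHG16, SNHG6 and ZFAS1 fall on both sides of 0.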

How the data were processed

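RNase I footprints of 28 to 30 nt, selected on a gel, were made into small RNA libraries and read in 2 runs of 76 bp single reads, per the labels' protocols. The labels do not assign libraries to runs, and run effects were not tested. The authors deposited values in TPM for 60651 genes in 8 libraries. The submitters' processing notes name cutadapt 3.2, Bowtie2 2.3.4.1, RSEM 1.2.28, STAR 2.7.1a and DESeq2 1.32.0 and the builds hg38 and GRCh38, with no roles; the annotation is not given in the sources used here. Each column was matched to its library by description.

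Values were fitted as log2(TPM + 1) with limma 3.58.1 (R 4.3.3; lmFit, eBayes with trend) on 11778 genes whose mean reached 1 TPM, treatment as the only term, and Benjamini-Hochberg adjustment over all of them. Fold changes are on that scale, which understates low genes. On simulated tables of 11778 genes the fit recovered 78.5% of genes changed 2-fold and 95.4% of those changed 4-fold. Noise was drawn independently for each library. No change below 2-fold was simulated, and the estimates of all 10 members were below it, so recovery at their size is not known. Single genes also had a two-sided exact permutation test of TPM over 70 assignments, with Benjamini-Hochberg adjustment over the 10 members. After group means were removed, libraries of the same number correlated across genes at 0.105 to 0.333, and other pairs at -0.206 to 0.134. The numbers were therefore taken as pairs in a second fit, though the ranges overlap. Replicates 4 correlated at 0.105, below CR31B replicate 4 with DMSO replicate 1 at 0.134. GENCODE 29 and RefSeq (GRCh38.p14) gave types, positions and sequences; 58391 identifiers had a GENCODE type. By rule the named genes are the 10 members, the significant genes with the largest rise and fall of each list, and 3 by likeness; SNHG3, EIF4G2, SNRPB, SMG6, RBM8A, ZNHIT3 and TIAL1 were named after their values were seen, and UPF1, LARP1 and the markers for their role. Members and lists were chosen with earlier results of these data known. Other tools were pandas 2.3.3 and matplotlib 3.10.9 in Python 3.11.15, with SciPy 1.17.1 and NumPy 2.4.6. Alternatives were other pseudocounts, filters, scalings, the block and leaving out each library. A marker gene and a sequence are not reported here.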

Additional observations from a re-analysis of the deposited data

Results flagged for a closer look

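Libraries were compared within 22 groups of 4, and 2 groups had 1 library standing apart, by Dixon's criterion (its distance to the next library over the whole range); chance alone gives about 1.1. The 10 hosts together made up 0.2826% of TPM in CR31B replicate 1, against 0.195% to 0.1955% in the other CR31B libraries. In DMSO replicate 1 they made up 0.1865%, against 0.148% to 0.1544% in the other DMSO libraries.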

How the results depend on the processing

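Over the alternatives tried, 274 values were stable (estimates in direction and call, counts within 1.5 times, the median and the summed share within 1 SD), 28 counts moved by more, 12 estimates reversed and 4 passed the threshold only then. With the replicate block, GAS5 passed (log2 change 0.51), so 1 host was higher, and over all genes 680 were higher and 773 lower, with 7 higher in the comparison lists; pairing changed no other call among the 10 hosts. Rescaled over protein-coding genes, SNHG1 passed (0.57), so 1 host was higher, beside 4.62% of all genes and 7 list genes. With quantile normalization GAS5 (0.61) and SNHG1 (0.61) passed, so 2 hosts were higher, beside 4.13% of all genes and 8 list genes. With median-ratio scaling 7 list genes were higher. Without a filter on low values, 181 genes were higher and 261 lower, and 1 list gene was lower. Leaving out 1 library gave 197 to 393 genes higher and 208 to 486 lower, against 406 and 473 with all, and 2 to 4 list genes in each direction, against 4 each. No host passed in any fit with 1 library left out. SNHG6 reversed to 0.021 over protein-coding genes and 0.016 without small RNA genes and ran from -0.091 to 0.11 with 1 library out. SNHG16 was -0.0057 with median-ratio scaling and ran from -0.043 to 0.12, and ZFAS1 ran from -0.19 to 0.054. The TOP start was found in 6 hosts within 10 bases and in 8 by GENCODE starts, the latter added after seeing the data, against 3 at the RefSeq start. With a mean of at least 10 TPM, SNHG6 and SNHG12 were not tested. The cause of these changes was not tested, and depth is unknown from TPM.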
